A study of Mus musculus with 24 samples.

Results

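The 46 genes described here are the machinery of DNA replication and S phase: the origin licensing factors and the MCM helicase, the factors that activate it, the replicative polymerases, the sliding clamp and its loader, the single-strand binding protein, flap removal and ligation, deoxynucleotide supply, replication-coupled chromatin assembly and methylation, and the glycosylase Neil3. They were taken by name from the count table, where all 46 were found among 21878 genes. Of them, 45 passed the low-count filter and were tested among 13501 genes, and Orc1 did not pass it.

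Before S phase, the origin recognition complex with Cdc6 and Cdt1 loads the MCM complex onto DNA, and geminin (Gmnn) blocks a second loading. Cdc45 and the GINS complex then turn MCM into an active helicase, polymerase alpha with primase starts each strand, and polymerases epsilon and delta extend it on the PCNA clamp. In the adult heart most cardiomyocytes do not divide, and after an infarct dividing cells include endothelial cells, fibroblasts and leukocytes.

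RNA-seq was run on mouse hearts taken 3 weeks after myocardial infarction (MI), from ovariectomised (OVX) mice that had all received an adeno-associated virus of serotype AAV9. The 4 groups combine the vector (AAV9-OE miR-21, which overexpresses miR-21, or AAV9-Empty) with swimming training given before MI or no swimming (labelled Control). These were miR-21 swum hearts (5 libraries), miR-21 control hearts (6 libraries), empty-vector swum hearts (6 libraries) and empty-vector control hearts (6 libraries). The sixth miR-21 swum sample is not analysed here. The vector's promoter, the part of the heart taken, the age of the mice and any pooling are not stated here, and no group without OVX, MI or virus is part of the comparison. Libraries held 12744241 to 14657630 counts over genes. Levels are given below as CPM (counts scaled to library size with TMM factors), and changes as log2 fold changes from edgeR's quasi-likelihood test with Benjamini-Hochberg adjustment over the 13501 genes. A gene is called changed at an adjusted p under 0.05.

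One library stood apart for these genes. Replicate 2 of the miR-21 swum hearts was the highest of its group for 33 of the 45 tested members and the highest of all 23 libraries for 14. Its mean level, as log2 CPM centred on each gene's mean over the 23 libraries, was 0.56, against -0.29 to -0.13 in the other 4 miR-21 swum libraries. The same library had 947 CPM summed over 5 neutrophil markers, against 14.6 to 46.4 CPM in the other 4, 652 CPM over 6 macrophage markers, against 131 to 213 CPM, and 200 CPM over 5 adipocyte markers, against 0.826 to 9.47 CPM. Its 7 cardiomyocyte markers summed to 51181 CPM, against 87097 to 107610 CPM. Among empty-vector control hearts, replicates 2 and 5 had the group's highest neutrophil sums (246 and 185 CPM) and the group's highest mean replication gene levels (0.14 and -0.02), against -0.24 to -0.10 in the other 4. The part of these cell type differences in the results was not tested, and counts of called genes are given with and without these libraries.

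**Figure D1:**
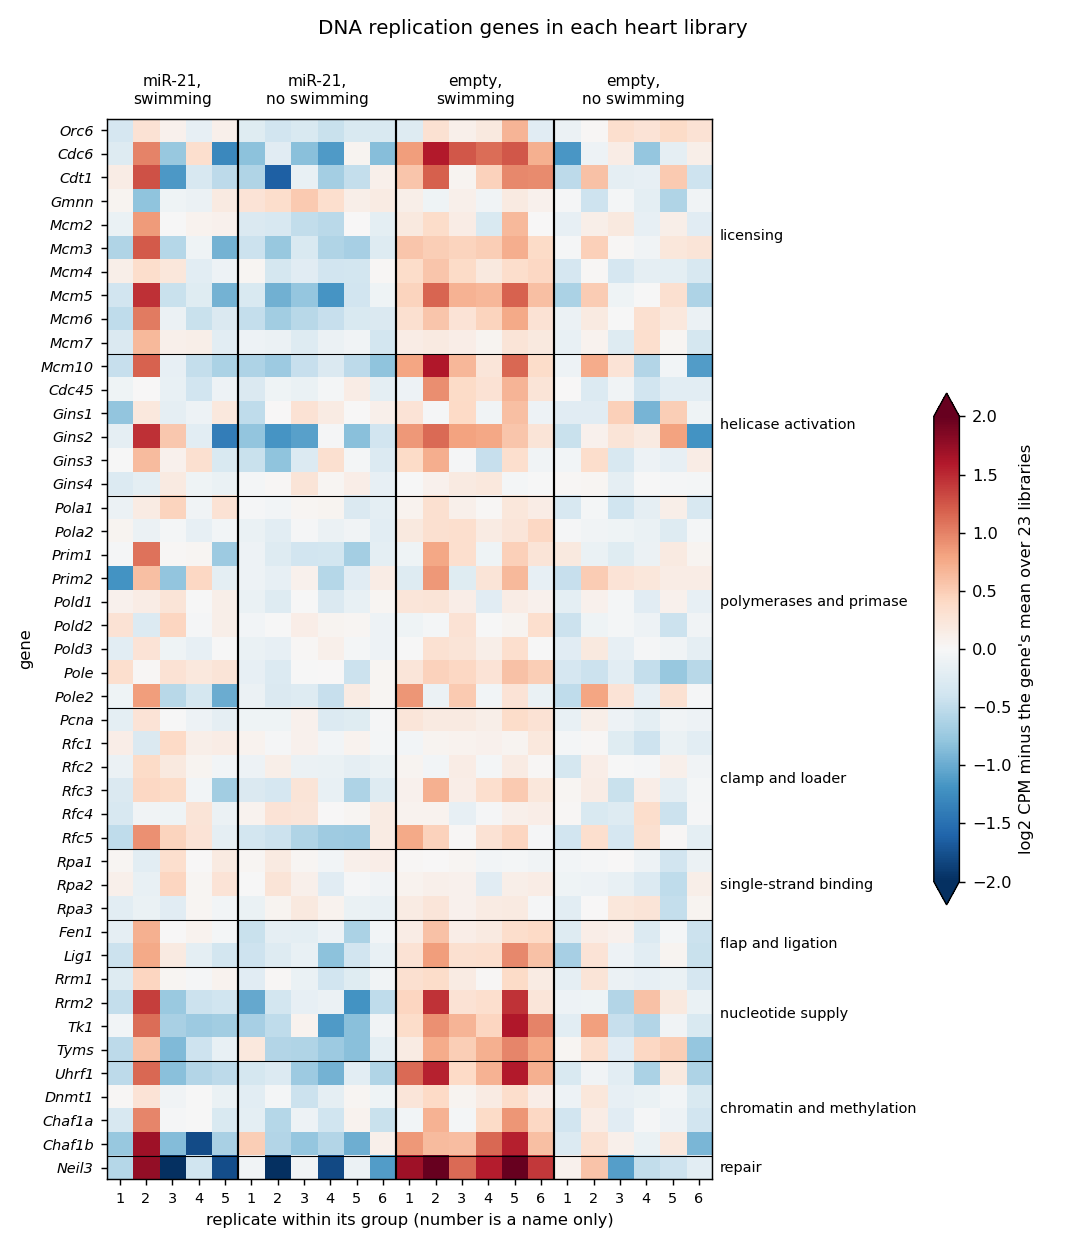
Heat map of 45 replication genes (rows, grouped by role) in 23 heart libraries (columns, grouped by vector and swimming); colour is log2 CPM minus the gene's mean over all libraries, cut at 2 either way. The 6 empty-vector swum libraries have mean centred levels of 0.25 to 0.61, and replicate 2 of the miR-21 swum hearts, at 0.56, stands above the other 4 of its group.

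In empty-vector swum hearts, 11 of the 45 tested members rose and 0 fell relative to empty-vector control hearts, a share of 24.4%, while 4.18% of all genes tested rose, 3.28% fell and 7.46% changed in either direction. The estimate was positive for 44 of the 45, and the members' median log2 fold change was 0.34, against -0.00 over all genes tested. In 8 members every swum library lay above every control library (17.8%, against 2.9% of all genes tested), namely Cdc6, Mcm4, Pola2, Pole, Lig1, Uhrf1, Chaf1b and Neil3. The 11 that rose were Neil3, Cdc6, Uhrf1, Pole, Lig1, Cdc45, Mcm4, Pola2, Rrm1, Pcna and Dnmt1. Mcm4, Cdc6, Cdc45, Pola2, Pole and Uhrf1 passed the threshold in all 23 fits that left out 1 library, Pcna in 22, Lig1 in 19, Neil3 in 16, Dnmt1 in 9 and Rrm1 in 5. In bulk tissue, more or fewer cells of a type and more or less RNA per cell cannot be told apart.

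The sample titles carry numbers in 2 separate runs, a lower and a higher one, whose meaning is not stated. All empty-vector swum hearts are in the higher run and all empty-vector control hearts in the lower, so run and swimming cannot be told apart under the empty vector. Only the miR-21 swum hearts hold both runs, so a term for run is set by their replicates 1 and 2 (lower run) against 3, 4 and 5 (higher run). Replicate 2 is the library that stood apart. With the run as a term 8 members rose (0.993% of all genes tested). Of the 11 above, Mcm4, Cdc6, Uhrf1 and Neil3 are among the 8, joined by Cdt1, Mcm5, Tk1 and Chaf1b. Mcm4, Cdc6, Uhrf1 and Neil3 had log2 fold changes of 0.87, 2.57, 2.6 and 5.22 with the term. Without it they had 0.60, 1.54, 1.36 and 2.27. The term ended the call of the other 7 of the 11, with adjusted p of 0.0563 for Pola2, 0.0638 for Pole, 0.121 for Dnmt1, 0.13 for Lig1, 0.133 for Pcna, 0.17 for Cdc45 and 0.336 for Rrm1. Their log2 fold changes with the term were 0.43, 0.82, 0.53, 1.16, 0.46, 0.83 and 0.45 in that order. Without it they were 0.38, 0.89, 0.31, 0.74, 0.31, 0.65 and 0.34, so only that of Pole was lower with the term. Under the empty vector, endothelial marker sums were 1226 to 1555 CPM in swum hearts and 1037 to 1275 CPM in control hearts, with Pecam1, Cdh5 and Erg called higher of 6 markers. Smooth muscle and pericyte sums were 977 to 1205 CPM in swum hearts and 679 to 920 CPM in control hearts, with 3 of 5 markers called higher. Adipocyte sums were 0.445 to 2.09 CPM in swum hearts, where Lep was at 0 in every library, and 2.23 to 211 CPM in control hearts. The part of these markers in the members' rise was not tested.

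Licensing factors gave 2 of the 11. Mcm4, a subunit of the MCM helicase, had 13.0, 15.2, 13.97, 10.2 and 11.04 CPM in the miR-21 swum libraries, and lowest, median and highest values of 9.06, 9.70 and 12.2 CPM in miR-21 control hearts. The same 3 values were 13.7, 15.4 and 17.5 CPM in empty-vector swum hearts and 9.37, 9.97 and 12.1 CPM in empty-vector control hearts. Under the empty vector the swum and control libraries did not overlap, and the log2 fold change was 0.60 ± 0.10 (SE, adjusted p = 0.00133). Cdc6, which loads MCM at origins, had 0.826, 2.18, 0.546, 1.32 and 0.330 CPM in the miR-21 swum libraries and 0.387, 0.511 and 1.07 CPM (lowest, median, highest) in miR-21 control hearts. It had 1.76, 2.48 and 3.35 CPM in empty-vector swum hearts, against 0.375, 0.907 and 1.14 CPM in empty-vector control hearts, again with no overlap. These are 23 to 48 counts per library in empty-vector swum hearts and 5 to 16 counts in control hearts, and the log2 fold change was 1.54 ± 0.35 (SE, adjusted p = 0.0105).

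The remaining 8 tested licensing genes did not pass the threshold under the empty vector, with log2 fold changes of -0.04 for Orc6 to 0.85 for Mcm5. Orc6, a subunit of the origin recognition complex, was the only one of the 45 with an estimate below 0. Cdt1, the partner of Cdc6 in loading, had a log2 fold change of 0.73 (adjusted p = 0.206). Mcm5 averaged 10.9 ± 2.40 CPM in empty-vector swum hearts and 6.03 ± 1.95 CPM in empty-vector control hearts (SD, n = 6 each), with an adjusted p of 0.109. The estimates for Mcm2, Mcm3, Mcm6 and Mcm7 were 0.22, 0.36, 0.36 and 0.20, none of them called. Orc1, the filtered origin subunit, had at most 11 counts in any library and 0 counts in 4 of the 6 miR-21 control libraries, where 0 counts allow up to 0.253 CPM.

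**Figure D2:**
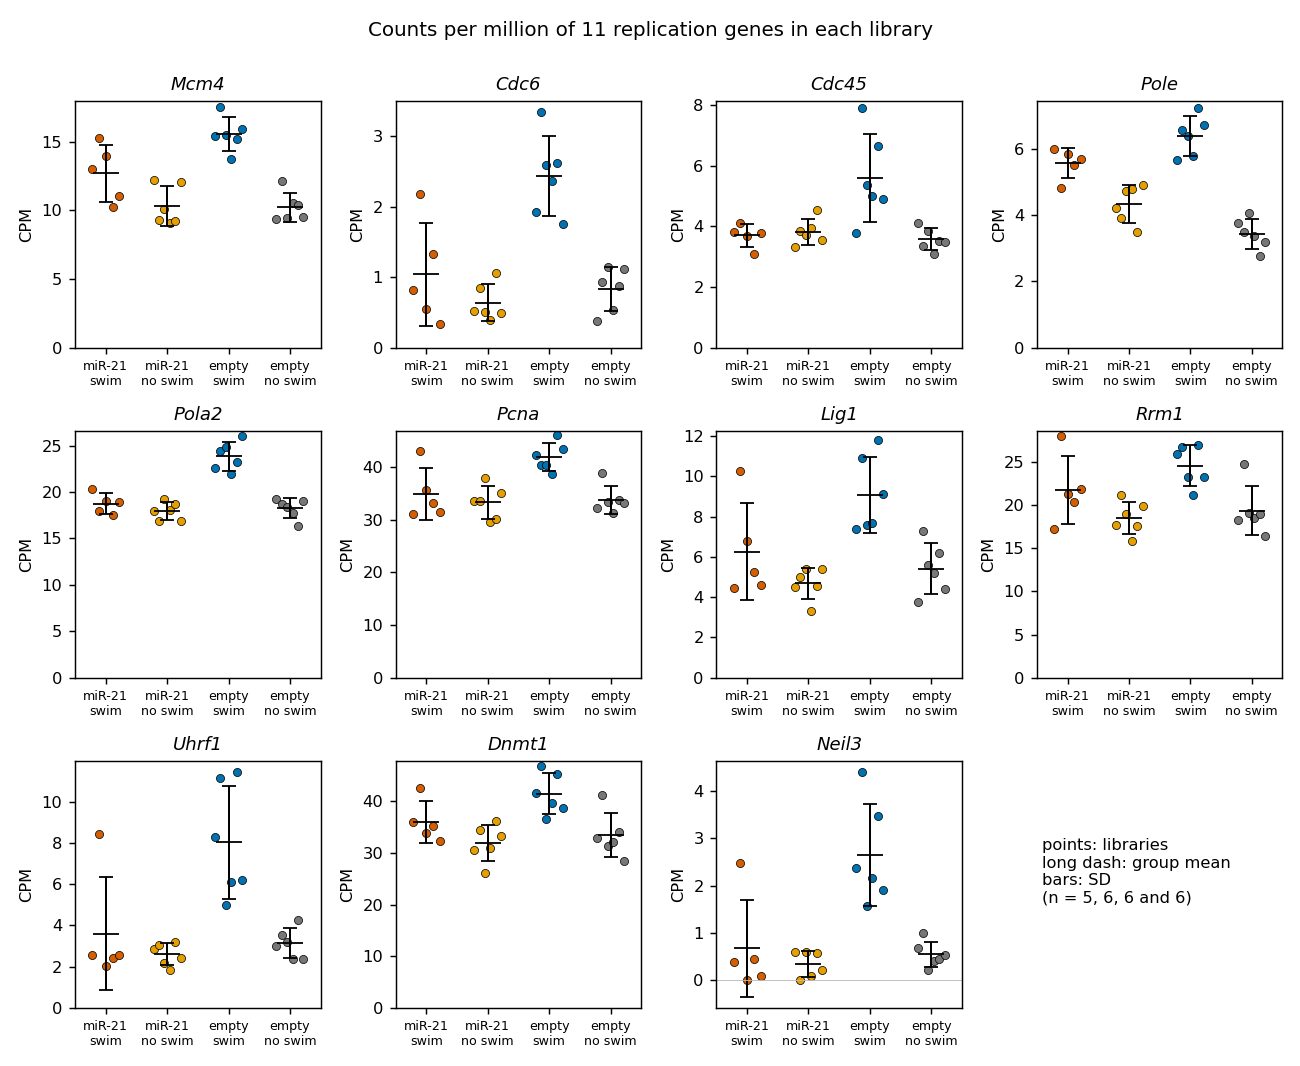
CPM of 11 replication genes in each library by group; points are libraries, long dashes are group means and bars are SD (n = 5 miR-21 swum, 6 in each other group). In Cdc6, Uhrf1 and Neil3 all 6 empty-vector swum libraries lie above all 6 empty-vector control libraries; in Uhrf1 and Neil3 replicate 2 of the miR-21 swum hearts, at 8.47 and 2.47 CPM, lies above the other 4.

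Promoters of 4 members are printed, 3 with and 1 without the E2F words that were searched for, the DNA element through which E2F factors are known to control many S-phase genes. Cdc6 and Dnmt1 rose in empty-vector swum hearts and hold a word, Mcm3 holds both words and was not called, and Uhrf1 rose and holds none in either of its windows. Each runs from 250 bases before to 50 after the transcription start, 5′ to 3′ on the gene's strand, from RefSeq on GRCm38.p6, which is not the GRCm39 build of the counts. Capitals mark TTTCCCGC or TTTGGCGC or their reverse complements.
Cdc6, chr11:98907901-98908200, plus strand: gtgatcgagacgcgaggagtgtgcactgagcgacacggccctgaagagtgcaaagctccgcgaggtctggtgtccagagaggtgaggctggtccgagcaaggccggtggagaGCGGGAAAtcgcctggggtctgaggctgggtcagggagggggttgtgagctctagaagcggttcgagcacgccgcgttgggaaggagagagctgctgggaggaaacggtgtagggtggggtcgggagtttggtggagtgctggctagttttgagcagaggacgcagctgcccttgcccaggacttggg
Mcm3, chr1:20820263-20820562, minus strand: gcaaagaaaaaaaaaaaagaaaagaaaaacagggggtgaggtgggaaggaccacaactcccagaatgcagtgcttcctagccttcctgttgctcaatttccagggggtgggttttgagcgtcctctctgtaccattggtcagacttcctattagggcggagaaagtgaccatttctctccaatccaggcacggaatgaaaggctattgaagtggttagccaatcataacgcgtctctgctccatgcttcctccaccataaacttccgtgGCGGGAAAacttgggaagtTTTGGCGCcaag
Dnmt1, chr9:20952574-20952873, minus strand: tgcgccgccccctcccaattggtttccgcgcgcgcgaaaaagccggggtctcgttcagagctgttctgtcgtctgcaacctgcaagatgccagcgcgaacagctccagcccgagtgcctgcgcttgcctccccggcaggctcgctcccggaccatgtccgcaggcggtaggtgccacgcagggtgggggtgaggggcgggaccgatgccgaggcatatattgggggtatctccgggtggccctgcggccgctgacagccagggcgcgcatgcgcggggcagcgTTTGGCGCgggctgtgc
Uhrf1, chr17:56303087-56303386, plus strand: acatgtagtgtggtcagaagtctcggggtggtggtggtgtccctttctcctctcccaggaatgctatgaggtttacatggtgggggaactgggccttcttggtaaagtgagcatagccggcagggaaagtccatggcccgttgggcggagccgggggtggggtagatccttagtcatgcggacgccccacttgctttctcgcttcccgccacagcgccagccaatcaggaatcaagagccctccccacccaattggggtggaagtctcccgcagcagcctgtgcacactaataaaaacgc
A promoter window was found for 38 of the 46 members. Of these, 13 (34.2%) hold at least 1 of the E2F words in a window, against 3.29% of the 10320 tested genes with a window: Cdc6, Cdt1, Mcm3, Mcm5, Mcm6, Mcm7, Gins3, Pola1, Pold1, Pold3, Pole2, Rfc3 and Dnmt1. CCAAT, searched on both strands as well, is in 24 of the 38 (63.2%), against 42.6% of tested genes, and TTTGAA, the CHR word, is in 6 (15.8%), against 14.2%. Of the 11 that rose with swimming, 9 have a window and 2 of these hold an E2F word. A match is a description of these letters in this window and says nothing of binding.

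Among the helicase activators, Cdc45, the subunit that joins MCM and GINS in the active helicase, rose in empty-vector swum hearts. It had 3.83, 4.12, 3.67, 3.09 and 3.79 CPM in the miR-21 swum libraries and 3.32, 3.77 and 4.55 CPM (lowest, median, highest) in miR-21 control hearts. Empty-vector swum hearts had 3.79, 5.18 and 7.89 CPM, against 3.10, 3.51 and 4.12 CPM in empty-vector control hearts. The 2 groups overlapped in their lowest and highest libraries, and the log2 fold change was 0.65 ± 0.15 (SE, adjusted p = 0.00912). Mcm10, which helps start unwinding at origins, had the largest estimate of this role under the empty vector, 0.99 ± 0.36 (SE), and missed the threshold (adjusted p = 0.0966). It had 17 to 47 counts per library in empty-vector swum hearts and 5 to 26 in empty-vector control hearts. The 4 GINS subunits had estimates of 0.11 (Gins4) to 0.76 (Gins2), with no call.

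Polymerase genes included the 2 smallest p-values of the set. Pole, the catalytic subunit of the leading-strand polymerase epsilon, had 6.004, 4.82, 5.85, 5.52 and 5.68 CPM in the miR-21 swum libraries and 3.48, 4.46 and 4.90 CPM (lowest, median, highest) in miR-21 control hearts. It had 5.65, 6.47 and 7.22 CPM in empty-vector swum hearts, against 2.76, 3.42 and 4.07 CPM in empty-vector control hearts. Under the empty vector all 6 swum libraries were above all 6 control libraries, at a log2 fold change of 0.89 ± 0.11 (SE, adjusted p = 8.85e-05). With the run of title numbers as a term the adjusted p was 0.0638. Replicate 2, the highest miR-21 swum library in 33 of the 45 tested members, was the lowest for Pole.

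Pola2, the accessory subunit of the polymerase alpha and primase complex, had 20.3, 17.9, 19.0, 17.5 and 18.9 CPM in the miR-21 swum libraries and 16.8, 18.0 and 19.2 CPM in miR-21 control hearts. It had 21.9, 23.9 and 26.1 CPM in empty-vector swum hearts, against 16.4, 18.6 and 19.3 CPM in empty-vector control hearts. The empty-vector swum libraries lay above every library of the other 3 groups, and the log2 fold change with swimming was 0.38 ± 0.06 (SE, adjusted p = 0.000495). Its partners in the same complex were not called, with 0.33 ± 0.11 for the catalytic subunit Pola1, 0.33 ± 0.24 for the primase subunit Prim1 and 0.09 ± 0.27 for Prim2 (SE). Polymerase delta genes Pold1, Pold2 and Pold3 had estimates of 0.18, 0.29 and 0.25, and the second epsilon subunit Pole2 had 0.12, none of them called.

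Pcna, the clamp that holds polymerases on DNA, was among the most abundant members. It had 31.1, 42.9, 35.7, 33.1 and 31.5 CPM in the miR-21 swum libraries and 29.6, 33.5 and 37.9 CPM (lowest, median, highest) in miR-21 control hearts. It had 38.6, 41.4 and 46.0 CPM in empty-vector swum hearts, against 31.2, 33.2 and 38.9 CPM in empty-vector control hearts. A small overlap came from control replicate 2, at 38.9 CPM, and the log2 fold change was 0.31 ± 0.08 (SE, adjusted p = 0.0178). The 5 subunits of the clamp loader had estimates of 0.08 (Rfc2) to 0.41 (Rfc3) and no call. The 3 subunits of RPA, which coats single-stranded DNA, had estimates of 0.09, 0.21 and 0.14 for Rpa1, Rpa2 and Rpa3, also with no call.

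Because the vector carries miR-21, the mature miRNA and the 1 clamp gene with a match to its seed are shown, with the seed (bases 2 to 8) and its match in capitals. The miRNA is from RefSeq and the site, 189 bases into the 3′ untranslated region, is from a GENCODE M21 transcript on GRCm38.
mmu-miR-21a-5p: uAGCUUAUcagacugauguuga
Pcna site, chromosome 2: tgcttaaagaATAAGCTccaaagtaaa
Such a 7-base match is in 5 of the 46 members (10.9%), against 7.84% of 12987 tested genes with an annotated region, and the median length of these regions is 484 bases in members and 1207 bases in tested genes. The 5 are Gins1, Gins3, Pcna, Rpa2 and Tyms. Their log2 fold changes in miR-21 control hearts relative to empty-vector control hearts were 0.03, -0.22, -0.02, 0.17 and -0.55, with no call among them. None was called between miR-21 and empty-vector swum hearts in the fit over all libraries. Pcna and Tyms were called lower in miR-21 swum hearts without their replicate 2, and also with the run of title numbers as a term. Replicate 2 stood apart by its high levels of the members, and it is among the libraries that set that term. The match is a description and shows no targeting.

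Lig1, the ligase that joins Okazaki fragments, had 4.43, 10.2, 6.79, 5.23 and 4.61 CPM in the miR-21 swum libraries and 3.33, 4.77 and 5.40 CPM (lowest, median, highest) in miR-21 control hearts. It had 7.37, 8.38 and 11.8 CPM in empty-vector swum hearts, against 3.75, 5.38 and 7.29 CPM in empty-vector control hearts. Swum and control libraries under the empty vector were adjacent without overlap, and the log2 fold change was 0.74 ± 0.20 (SE, adjusted p = 0.0240). Fen1, the flap endonuclease that acts before it, had 0.43 ± 0.15 (SE, adjusted p = 0.0741).

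Of the 4 genes for deoxynucleotide supply, Rrm1 rose. Rrm1, the large subunit of ribonucleotide reductase, had 17.3, 27.9, 21.2, 20.3 and 21.8 CPM in the miR-21 swum libraries and 15.9, 18.3 and 21.1 CPM in miR-21 control hearts. Its lowest, median and highest values were 21.1, 24.6 and 27.0 CPM in empty-vector swum hearts and 16.4, 18.7 and 24.7 CPM in empty-vector control hearts. Control replicate 2, at 24.7 CPM, overlapped the swum libraries, and the log2 fold change was 0.34 ± 0.10 (SE, adjusted p = 0.0471). This call was lost in 18 of the 23 fits that left out 1 library, with an adjusted p of up to 0.107. The other three had larger estimates with wider errors: 0.80 ± 0.34 for the small subunit Rrm2, 0.98 ± 0.33 for thymidine kinase Tk1 and 0.57 ± 0.25 for thymidylate synthase Tyms (SE).

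Replication-coupled chromatin genes gave 2 calls. Uhrf1, which binds hemimethylated DNA and brings Dnmt1 to it, had 2.55, 8.47, 2.03, 2.43 and 2.55 CPM in the miR-21 swum libraries and 1.86, 2.65 and 3.20 CPM (lowest, median, highest) in miR-21 control hearts. It had 4.97, 7.25 and 11.5 CPM in empty-vector swum hearts, against 2.36, 3.11 and 4.27 CPM in empty-vector control hearts. The empty-vector groups did not overlap, and the log2 fold change was 1.36 ± 0.30 (SE, adjusted p = 0.00753).

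Dnmt1, the maintenance DNA methyltransferase, had 36.0, 42.7, 33.8, 35.3 and 32.3 CPM in the miR-21 swum libraries and 26.1, 32.1 and 36.1 CPM in miR-21 control hearts. It had 36.6, 40.7 and 46.8 CPM in empty-vector swum hearts, against 28.5, 32.6 and 41.3 CPM in empty-vector control hearts, with overlap from control replicate 2. Its log2 fold change with swimming, 0.31 ± 0.09 (SE, adjusted p = 0.0355), was smaller than that of Uhrf1 and was not called in 14 of the 23 fits that left out 1 library (adjusted p up to 0.0949). The large and middle subunits of the chromatin assembly factor CAF-1, Chaf1a and Chaf1b, had 0.58 ± 0.21 and 1.09 ± 0.46 (SE), neither past the threshold, although the empty-vector groups did not overlap in Chaf1b (1.76 to 3.54 CPM in swum hearts, 0.521 to 1.40 CPM in control hearts). For Chaf1b these are 23 to 50 counts per library in swum hearts and 7 to 21 in control hearts.

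Neil3, a DNA glycosylase known from proliferating cells that acts on oxidised bases and interstrand crosslinks, had the largest estimate of the set. It had 0.375, 2.47, 0, 0.442 and 0.0824 CPM in the miR-21 swum libraries and 0, 0.391 and 0.590 CPM (lowest, median, highest) in miR-21 control hearts. It had 1.56, 2.26 and 4.397 CPM in empty-vector swum hearts, against 0.214, 0.480 and 1.003 CPM in empty-vector control hearts. Counts were 21 to 63 per library in empty-vector swum hearts and 3 to 15 in empty-vector control hearts, with no overlap, and the log2 fold change was 2.27 ± 0.63 (SE, adjusted p = 0.0311). The call was lost in 7 of the 23 fits that left out 1 library. In 1 miR-21 swum and 1 miR-21 control library Neil3 had 0 counts, which allow up to 0.234 and 0.23 CPM.

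The set of calls under the empty vector depended on the libraries in the fit. The spread per gene is estimated over all 4 groups, and without replicate 2 of the miR-21 swum hearts, which is in neither group of this comparison, 24 members rose and 0 fell (7.4% of all genes tested rose). Without that library and empty-vector control replicates 2 and 5, 24 rose and 0 fell (6.06%). With only the 2 groups in the fit 15 rose (4.62%). Leaving out 1 empty-vector library at a time, the count was 6 without control replicate 4 (2.68%), 7 without control replicate 6 (3.25%), 7 without swum replicate 2 (2.81%) and 7 without swum replicate 5 (2.54%). In the authors' deposited table, 7 members were higher at q under 0.05 (2.44% of its genes) and 0 were lower. The 7 were Cdc6, Lig1, Mcm4, Mcm5, Neil3, Pole and Uhrf1, of which Mcm5 was not called here. Pola2, Cdc45, Dnmt1, Pcna and Rrm1, called here, had q of 0.0588 (Pola2) to 0.115 (Rrm1) there.

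**Figure D3:**
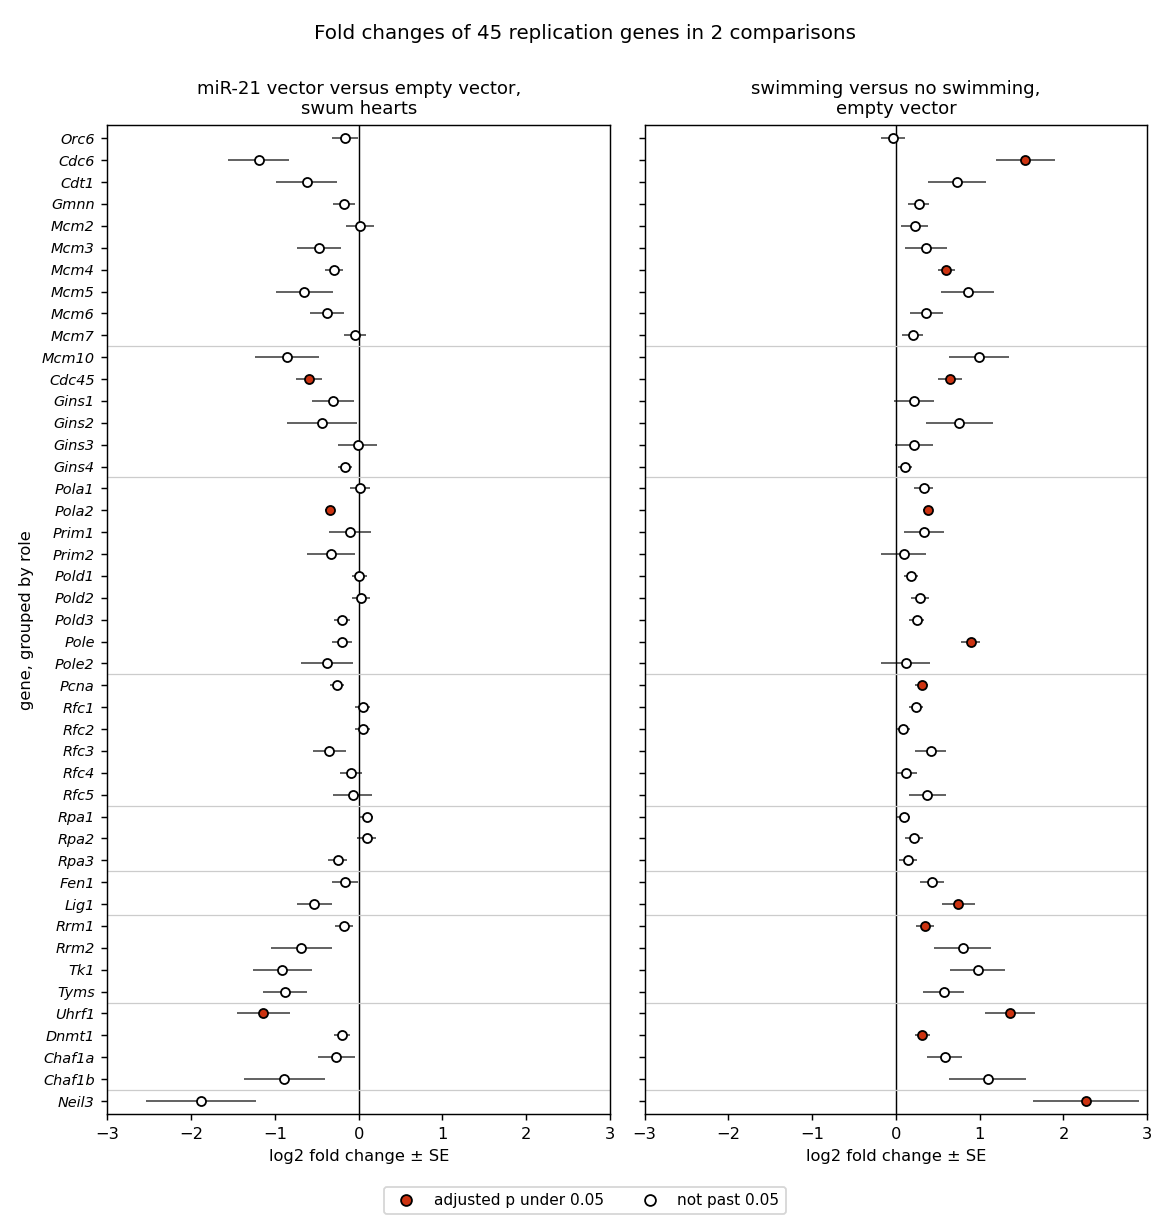
Log2 fold changes of 45 replication genes (points, with SE bars) for miR-21 against empty vector in swum hearts (left) and for swimming against no swimming under the empty vector (right), both from the fit over 23 libraries; filled points have an adjusted p under 0.05. Of the 45, 37 estimates are below 0 on the left and 44 above 0 on the right, and the comparisons share the empty-vector swum libraries.

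In swum hearts, 3 of the 45 members were lower with the miR-21 vector than with the empty vector and 0 were higher. Of all genes tested 2.71% were lower and 4.58% changed in either direction. The median log2 fold change of the members was -0.26, against 0.02 over all genes tested, and 37 estimates were negative. Pola2 had 17.5 to 20.3 CPM in miR-21 swum hearts and 21.9 to 26.1 CPM in empty-vector swum hearts. It was the 1 member without overlap (2.22%, against 1.9% of all genes tested). Its log2 fold change was -0.35 ± 0.06 (SE, adjusted p = 0.00256). Cdc45 fell to 3.09 to 4.12 CPM in miR-21 swum hearts, against 3.79 to 7.89 CPM in empty-vector swum hearts, a log2 fold change of -0.60 ± 0.15 (SE, adjusted p = 0.0285). Uhrf1 had a log2 fold change of -1.14 ± 0.31 (SE, adjusted p = 0.0378), with 4 of the 5 miR-21 swum libraries at 2.03 to 2.55 CPM and replicate 2 at 8.47 CPM, against 4.97 to 11.5 CPM in empty-vector swum hearts. Pola2 was called in all 23 fits that left out 1 library, Cdc45 in 17 and Uhrf1 in 15. With only the 2 groups in the fit 1 member, Pola2, was called (0.819% of all genes lower). These groups share the empty-vector swum libraries with the comparison above, so the 2 sets of estimates are not independent.

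Pcna and Neil3 did not pass the threshold in swum hearts, with log2 fold changes of -0.26 ± 0.08 (SE, adjusted p = 0.0669) and -1.88 ± 0.65 (SE, adjusted p = 0.102). Cdc6 had -1.19 ± 0.37 and Tyms -0.88 ± 0.26 (SE), with adjusted p of 0.0640 and 0.0571. Mcm3 and Mcm5, whose replicate 2 in the miR-21 swum hearts had 20.9 and 17.1 CPM, had 11.6 to 14.7 and 8.45 to 14.01 CPM in empty-vector swum hearts. In the other 4 miR-21 swum libraries Mcm3 had 4.53 to 8.39 CPM and Mcm5 had 3.13 to 5.15 CPM.

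Without replicate 2 of the miR-21 swum hearts, 19 members were lower and 0 higher in miR-21 swum hearts (6.76% of all genes tested were lower). That library stood apart by its high levels of these same members, as the highest of its group for 33 of 45. Leaving it out therefore lowers the group's levels, and these calls and p-values follow in part from that choice. The 19 were Mcm3, Mcm4, Mcm5, Mcm6, Mcm10, Cdc6, Cdt1, Cdc45, Pola2, Pold3, Pcna, Lig1, Rrm2, Tk1, Tyms, Uhrf1, Chaf1a, Chaf1b and Neil3. Mcm3 then had a log2 fold change of -1.04 ± 0.14 (SE, adjusted p = 9.66e-05), Uhrf1 -1.74 ± 0.24 (SE, adjusted p = 0.000102) and Pcna -0.34 ± 0.07 (SE, adjusted p = 0.00279). Neil3 had -3.47 ± 0.61 (SE, adjusted p = 0.000755) on the 0 to 6 counts of the remaining 4 miR-21 swum libraries. Among hearts in the higher run of title numbers only, 3 miR-21 swum and 6 empty-vector swum, 17 members were lower and 0 higher (5.28% of all genes tested lower), and Neil3 had -3.79 ± 0.63 (SE, adjusted p = 0.00507). Leaving out any 1 of the other 4 miR-21 swum libraries, or empty-vector swum replicate 2 or 5, left 1 member called (1.59% to 1.95% of all genes lower). Without replicate 2 and the 2 control libraries, 21 were lower (8.62%). The authors' deposited table had 0 members past q under 0.05 in swum hearts (0.837% of its genes), and DESeq2 called 6, all lower (3.31%).

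Other values moved with this difference. Endothelial markers Pecam1, Cdh5, Kdr and Erg were called lower in miR-21 swum hearts, whose 6 endothelial markers summed to 1048 to 1237 CPM, against 1226 to 1555 CPM in empty-vector swum hearts. Mesothelial markers Upk3b, Msln and Upk1b were called higher, with a sum of 145 CPM in replicate 2 and 5.11 to 12.1 CPM in the other 4 miR-21 swum libraries, against 7.88 to 13.7 CPM in empty-vector swum hearts. Their part in the members' difference was not tested.

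**Figure D4:**
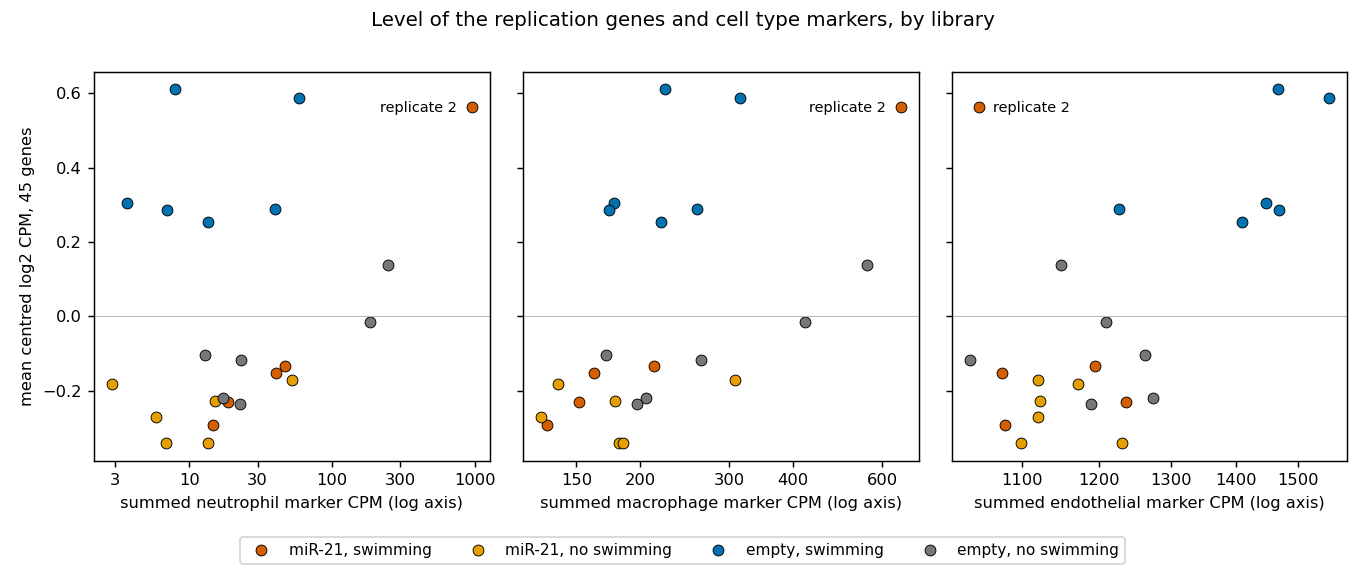
Mean centred log2 CPM of 45 replication genes (vertical) against the summed CPM of neutrophil, macrophage and endothelial markers (horizontal, log axes) in 23 libraries, coloured by group. Replicate 2 of the miR-21 swum hearts has the highest neutrophil (947 CPM) and macrophage (652 CPM) sums, while the empty-vector swum libraries, at 0.25 to 0.61, have neutrophil sums of 3.65 to 58.1 CPM.

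In hearts without swimming, the miR-21 vector went with 2 calls, both in licensing (4.44%), against 2.25% of all genes tested (0.881% higher and 1.37% lower). DESeq2 also called 2 members, against 8.69% of all genes. With the run of title numbers as a term edgeR called 2, against 6.75% of all genes. Gmnn, the inhibitor of Cdt1, rose, with lowest, median and highest values of 40.5, 46.3 and 54.1 CPM in miR-21 control hearts and 24.6, 34.0 and 36.9 CPM in empty-vector control hearts, a log2 fold change of 0.51 ± 0.12 (SE, adjusted p = 0.0410). Orc6 fell, with 4.72, 5.19 and 5.46 CPM in miR-21 control hearts and 5.92, 7.88 and 8.47 CPM in empty-vector control hearts, a log2 fold change of -0.55 ± 0.14 (SE, adjusted p = 0.0486). Neither gene's groups overlapped. Gmnn was called in 12 and Orc6 in 7 of the 23 fits that left out 1 library. Those of Mcm3 (5.22 to 7.39 CPM in miR-21 control hearts, 8.49 to 12.4 CPM in empty-vector control hearts) and Mcm6 (8.67 to 11.6 and 13.0 to 17.7 CPM in the same order) did not overlap either, with log2 fold changes of -0.67 ± 0.25 (SE, adjusted p = 0.108) and -0.55 ± 0.20 (SE, adjusted p = 0.0951). In all, 3 members were lower without overlap (6.67%, against 2.41% of all genes tested) and 1 was higher (2.22%, against 3.03%).

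Across the 45, 32 estimates were negative in miR-21 control hearts relative to empty-vector control hearts, with a median log2 fold change of -0.15, against -0.00 over all genes tested. Licensing genes had a median of -0.46, nucleotide supply genes -0.49 and polymerase genes -0.03. This comparison shares the empty-vector control libraries with that of swimming under the empty vector. Pcna was at -0.02 ± 0.08 (SE, adjusted p = 0.874) and Neil3 at -0.66 ± 0.73 (SE, adjusted p = 0.553). Without replicate 2 of the miR-21 swum hearts, which again enters through the shared spread, 7 members were called (21.3% of all genes tested changed): Gmnn, Rpa1, Pole and Rfc1 higher and Mcm3, Mcm6 and Orc6 lower. In 18 of the 23 fits that left out 1 library the count moved by over 1.5 times, between 0 and 7. At q under 0.05 in the authors' deposited table, 1 member, Gmnn, was higher (3.26% of its genes) and 2, Mcm3 and Mcm6, were lower (3.04%). Orc6, called lower here, had a q of 0.0627 there.

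Under the miR-21 vector, no member was called between swum and control hearts, against 0.17% of all genes tested; 16 members had an unadjusted p under 0.05 in edgeR and DESeq2 called 0 (2.91% of all genes). The estimate was positive for 39 of 45, with a median of 0.29, against 0.03 over all genes tested. The 2 smallest p were those of Gmnn, with 39.0, 21.4, 35.4, 34.5 and 42.6 CPM in the miR-21 swum libraries and a log2 fold change of -0.42 ± 0.13 (SE, adjusted p = 0.117), and Mcm2, with 8.11, 16.3, 8.90, 9.35 and 9.47 CPM in the miR-21 swum libraries, 6.12, 7.22 and 9.03 CPM (lowest, median, highest) in miR-21 control hearts and 0.52 ± 0.17 (SE, adjusted p = 0.136). Replicate 2 was the lowest library for Gmnn and the highest for Mcm2. Pcna was at 0.07 ± 0.08 (SE, adjusted p = 0.647) and Neil3 at 1.05 ± 0.74 (SE, adjusted p = 0.431), and without replicate 2 both estimates were below 0 (-0.01 and -0.54). The median without that library was 0.11. With the run of title numbers as a term, 11 members were called (10 higher and 1 lower, against 7.97% of all genes tested in either direction). Replicate 2 is among the lower-run libraries that set this term.

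The effect of swimming did not pass the test of a difference between vectors for any member, against 0.541% of all genes tested; 6 members had an unadjusted p under 0.05 in edgeR and DESeq2 called 2 (4.9% of all genes). Of the 45 interaction estimates, 34 were negative, with a median of -0.14, against 0.01 over all genes tested. A negative estimate means that the signed log2 change with swimming was lower under miR-21 than under the empty vector. The smallest p were those of Gmnn, -0.69 ± 0.18 (SE, adjusted p = 0.0616), and Pola2, -0.32 ± 0.08 (SE, adjusted p = 0.0632). Pcna had -0.24 ± 0.11 (SE, adjusted p = 0.219) and Neil3 -1.22 ± 0.99 (SE, adjusted p = 0.489). Without replicate 2 of the miR-21 swum hearts 1 member was called (0.237% of all genes tested): Uhrf1, at -1.48 ± 0.32 (SE, adjusted p = 0.0414). That library had the highest Uhrf1 level of its group, so leaving it out lowers the group's level. Without miR-21 swum replicate 1 the count was 2 (1.79%), and without replicate 5 it was 1 (2.63%).

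Group means put the empty-vector swum hearts highest in 34 of the 45 members. The lowest mean was in miR-21 control hearts for 31 members and in empty-vector control hearts for 11. Members with the highest mean in miR-21 swum hearts numbered 8, among them Rpa1, the large RPA subunit, at 68.5 ± 9.54 CPM in miR-21 swum hearts (n = 5), 68.2 ± 3.78 CPM in miR-21 control hearts, 64.1 ± 1.89 CPM in empty-vector swum hearts and 60.2 ± 5.61 CPM in empty-vector control hearts (SD, n = 6 each). Those 4 means differ by less than the widest SD. Gmnn had its highest mean in miR-21 control hearts, at 46.2 ± 4.83 CPM, with 34.6 ± 8.03 CPM in miR-21 swum, 39.1 ± 2.91 CPM in empty-vector swum and 32.4 ± 5.01 CPM in empty-vector control hearts (SD).

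The members span a wide range of abundance in the infarcted heart. On the authors' FPKM scale, which divides by gene length and so allows genes to be set side by side, the median level over the 23 libraries was highest for Gmnn (35.1), Pcna (27.4) and Rpa1 (20.6). It was lowest for Neil3 (0.243), Cdc6 (0.203), Mcm10 (0.125) and Orc1 (0.0317). In the 15 tested members with the highest FPKM (4.41 to 35.1), the median log2 fold change with swimming under the empty vector was 0.21 and 4 were called. In the next 15 (1.32 to 4.10 FPKM) it was 0.41 with 3 called, and in the 15 lowest (0.125 to 1.32 FPKM) it was 0.73 with 4 called. Low members thus had the larger estimates and, as the plot of level against fold change shows, the wider errors.

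**Figure D5:**
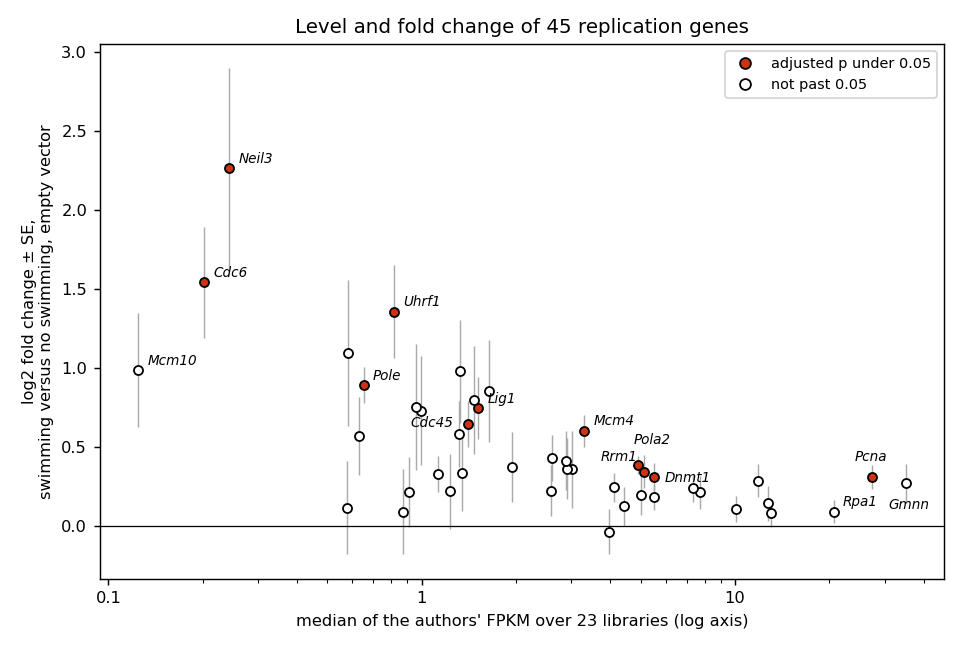
Log2 fold change with swimming under the empty vector (points, with SE bars) against the median of the authors' FPKM over 23 libraries (log axis) for 45 replication genes; filled points have an adjusted p under 0.05. Neil3, Cdc6 and Uhrf1 combine low FPKM with log2 fold changes of 2.27, 1.54 and 1.36, while Pcna and Dnmt1 are called at 0.31.

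Other genes around the same process were read from lists chosen by name. Under the empty vector, 16 of 25 mitosis markers rose in swum hearts and 0 fell, with a median log2 fold change of 1.38, while 4.18% of all genes tested rose. That count was 5 without empty-vector swum replicate 5 (2.54% of all genes tested rose) and 24 without miR-21 swum replicate 2 (7.4%). It moved by over 1.5 times in 15 of the 23 fits that left out 1 library. The mitosis genes with the smallest p were Ect2, an exchange factor for cytokinesis (2.12), the spindle checkpoint kinase Ttk (2.28) and the kinetochore protein Cenpf (1.32). Of 26 tested further replication factors 4 rose, including the alternative clamp loader subunit Chtf18 (1.15), the small epsilon subunit Pole4 (0.31) and the checkpoint mediator Clspn (1.42). Of 17 checkpoint and fork repair genes 5 rose, among them Wee1, which inhibits CDKs (0.94), Rad51ap1 (1.34) and Bard1 (1.06), both of homologous recombination. Of 10 S phase kinases and cyclins 2 rose, cyclin A2 (Ccna2, 1.71) and the APC/C inhibitor Fbxo5 (1.13).

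Some neighbouring lists had no call in that comparison. None of 16 E2F and pocket protein genes, 15 base excision repair genes or 11 tested genes of histone supply was called, with 6, 1 and 4 at an unadjusted p under 0.05 in edgeR. DESeq2 called 1 of the E2F and pocket protein genes and 0 in the other two lists. With 1 library left out, the E2F and pocket protein list stayed at 0 in 17 of the 23 fits and reached up to 4. Histone supply stayed at 0 in 20 fits and reached up to 2, and base excision repair stayed at 0 in all 23. Among 18 genes of nucleotide metabolism, Shmt1, of folate metabolism, rose (0.56) and the CTP synthase Ctps fell (-0.35). Among 11 tested D cyclins and CDK inhibitors, Ccnd1 (cyclin D1, 0.66) and Cdkn2c (p18, 0.47) rose, and Cdkn1a (p21), which blocks entry into S phase, fell (-1.36), 1 of 2 that fell. With the run of title numbers as a term, of the genes named from these lists Ect2, Ttk, Clspn, Ccna2 and Ccnd1 kept their calls, and Cenpf, Chtf18, Pole4, Wee1, Rad51ap1, Bard1, Fbxo5, Shmt1, Ctps, Cdkn2c and Cdkn1a lost theirs, with adjusted p of 0.0505 (Bard1) to 0.828 (Shmt1). With the term the estimates of Cenpf (0.95), Wee1 (0.68), Shmt1 (0.16) and Ctps (-0.25) were smaller in size. Those of the other genes that lost their calls were larger in size.

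In swum hearts, 11 of the 25 mitosis markers were lower with the miR-21 vector, with a median of -1.56, while 2.71% of all genes tested were lower. The count was 4 without miR-21 swum replicate 4 (within the 1.59% to 1.95% of all genes lower given above). It was 24 without replicate 2 (6.76%) and 0 with only the 2 groups in the fit (0.819%). Prc1, Ect2 and Anln, all of cytokinesis, were at -2.48, -1.90 and -1.67. Clspn (-1.64), Pole4 (-0.31), Ccna2 (-1.85), Rad51ap1 (-1.32), the repressor E2f7 (-1.09) and the histone chaperone Asf1a (-0.36) fell as well. Among D cyclins and CDK inhibitors Ccnd1 and Cdkn2c fell (-0.94 and -0.61) while cyclin D2, Ccnd2, rose (0.46), and Ctps rose (0.23). E2f7 was called in 4 of the 23 fits that left out 1 library (adjusted p up to 0.128), Ctps and Ccnd2 in 16, and Ccna2 and Rad51ap1 in 17. With only the 2 groups in the fit, Ccnd1 was the 1 gene of those named from these lists that passed (adjusted p = 0.0221). In hearts without swimming the miR-21 vector gave calls in Wee1 (0.66), Shmt1 (0.59) and Cdkn1a (-1.12), which were called in 21, 6 and 20 of the 23 fits that left out 1 library, and none among the 25 mitosis markers, of which 9 had an unadjusted p under 0.05 in edgeR and DESeq2 called 1. With only the 2 groups in the fit 8 of them were called, all lower in miR-21 control hearts. In that fit 12.5% of all genes tested changed in either direction. The test of a difference between vectors in the effect of swimming called Pole4 (-0.41) and Wee1 (-0.86) of these lists, in 6 (Pole4) and 16 (Wee1) of the 23 fits that left out 1 library. With the run of title numbers as a term neither was called (adjusted p = 0.102 for Pole4 and 0.135 for Wee1). Under the miR-21 vector, neither edgeR nor DESeq2 called a gene of these lists between swum and control hearts, although 5 of the 25 mitosis markers had an unadjusted p under 0.05 in edgeR. With the run as a term, edgeR called 12 mitosis markers, all higher in swum hearts, against 7.97% of all genes in either direction. That term is set by the miR-21 swum hearts alone, with replicate 2 in the lower run. Without the term, none of the mitosis markers was called in any fit that left out 1 library.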

How the data were processed

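The count table used holds 23 libraries of mouse heart RNA, made with a stranded mRNA kit per the labels' protocols. The authors deposited raw read counts per gene, FPKM values (fragments scaled to gene length and depth, by the authors) and, for 4 pairs of groups, their own log2 fold changes with p-values and q-values. GRCm39 is named per the submitters' processing notes; the aligner, the counting tool and the test behind those tables: not given in the sources used here. Sample columns repeated in the comparison tables (46) were not used. No label says that libraries of a group come from separate animals, so p-values measure the spread between these libraries.

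Counts were tested with edgeR 4.0.16 (R 4.3.3; quasi-likelihood test, robust, TMM scaling, filterByExpr at a minimum count of 10) in 1 model of 4 groups, with 5 contrasts and Benjamini-Hochberg adjustment over all genes tested. The script was tested on simulated data. DESeq2 1.42.0 and limma 3.58.1 (voom with quality weights) were alternatives, beside other scalings, filters, library sets and a term for the run of title numbers. A count of 0 allows up to 3 counts, and floors cover counting error only. Centred levels use log2 CPM with a prior count of 2. Promoters come from RefSeq (GRCm38.p6).

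The members, lists, markers and alternatives were chosen with earlier results of these data known. Fold changes are given for all members called, or for the 2 with the smallest p where fewer than 2 were called. Values by library are given for up to 2 called members per role with the smallest p, and for Pcna and Neil3. Other lists give up to 3 called genes per comparison. Other members named with values were chosen after their values were seen.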

Additional observations from a re-analysis of the deposited data

Results flagged for a closer look

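In 180 combinations of a member and a group, the highest or lowest library was set against its neighbour, and 18 had a library apart from the rest by Dixon's criterion. Chance gives about 1 in 20. Values are log2 CPM.

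Of the 18, 8 were replicate 2 of the miR-21 swum hearts, each time as the highest of its group: Mcm2 (4.04), Mcm5 (4.11), Mcm6 (4.87), Mcm10 (1.35), Fen1 (3.41), Rrm2 (3.29), Uhrf1 (3.11) and Chaf1a (3.20). This library also had the highest neutrophil and macrophage marker sums, and the part of these in its replication gene levels was not tested. Empty-vector control replicate 2 was apart as the highest of its group in Pcna (5.29), Rrm1 (4.64) and Tk1 (2.42).

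The remaining cases were scattered over libraries. In miR-21 control hearts, Gins1 was apart in replicate 1 (0.63) and Rfc2 in replicate 2 (4.44). In empty-vector swum hearts, replicate 4 was apart in Pold1 (3.995) and Rpa2 (3.53). In empty-vector control hearts, Gins4 was apart in replicate 3 (3.63), Prim2 in replicate 1 (1.17) and Rpa1 in replicate 5 (5.64).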

How the results depend on the processing

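Shares in brackets are of all genes tested, in the members' direction. Under the empty vector every alternative gave 0 members lower with swimming; 27 rose by voom with quality weights (6.82%), 24 without the 3 libraries of highest adipocyte marker level (6.06%), 7 with a fold of at least 1.5 (1.56%), and 6 to 24 with 1 library left out. For miR-21 in swum hearts, 25 members were called by voom (10.4%), 6 by DESeq2 (3.31%), 14 with the run of title numbers as a term (3.47%), 17 within 1 run (5.28%), 21 without the 3 libraries (8.62%), 1 with the 2 groups alone (0.819%), and 1 to 19 with 1 library left out, all of them lower. The larger of these counts are not independent of each other. Voom gave replicate 2 of the miR-21 swum hearts the lowest weight of any library (0.114). The fits within 1 run and without the 3 libraries leave that library out, and it is among those that set the run term. For miR-21 without swimming, with shares in either direction, 5 were called by voom (9.68%), 5 without the 3 libraries (5.76%), 4 with the 2 groups alone (12.5%), 4 within 1 run (the same libraries), 1 with no filter (0.842%) and 0 with a fold of at least 1.5 (1.05%), and 0 to 7 with 1 library left out. Swimming under miR-21 gave 1 by voom (2.21% in either direction), 11 with the run as a term (7.97%), and 0 to 0 with 1 library left out. The difference between vectors gave 2 by DESeq2 (4.9% in either direction), 1 by voom (0.97%), 1 without the 3 libraries (0.396%), and 0 to 2 with 1 library left out. Of the named members' log2 fold changes 9 reversed, all uncalled. Neil3 with swimming under miR-21 was at -0.17 by voom, -0.54 without the 3 libraries and -0.54 to 1.35 with 1 library left out, lowest without miR-21 swum replicate 2. Pcna there was at -0.017 by voom, -0.014 without the 3 libraries and -0.011 to 0.114 with 1 left out, lowest without the same replicate. Pcna for miR-21 without swimming was at 0.036 without the 3 libraries and -0.068 to 0.036 with 1 left out, above 0 without empty-vector control replicate 2 (0.036) or miR-21 control replicate 4 (0.0028). The cause was not tested. Of the other values of named members, 796 kept their side of the threshold, 105 lost it and 19 gained it; of those of genes from other lists, 977 kept it and 158 lost it. No paired analysis was possible because the labels give no replicate numbers shared between groups. Neil3, Cdc6, Orc1, Chaf1b, Gins2, Mcm10 and Pole2 are among the members that rest on few counts per library.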
